A study of Mus musculus with 66 samples.

Results

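The mouse genes of the constitutive proteasome and its activators were followed through a study of hippocampal RNA. They were the rows of the deposited expression tables whose name is Psma, Psmb, Psmc, Psmd or Psme with a number, without the 4 subunits that replace others in immune and thymic tissue (Psmb8, Psmb9, Psmb10 and Psmb11). That rule found 39 genes of the 55421 rows of each table, and all 39 passed the filter on low values in every fit. By role, 7 encode the alpha ring of the 20S core, 1 its testis counterpart (Psma8), 7 the beta ring, 6 the ATPases and 11 the other subunits of the 19S cap, 3 the chaperones of cap assembly and 4 the activators.

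The 66 libraries were made from hippocampal poly(A) RNA of mice of the inbred strain C57BL/6 that had received brain extract from either control or Alzheimer's disease brain, called Ctrl and AD here. The series is titled as a study of age and seeded tauopathy, the spread of tau aggregates from injected material. Animals were labelled 3 or 12 months old and were sampled 1, 3 or 5 months post injection (mpi), which gives 12 groups. In the 3-month cohort the Ctrl groups held 5 libraries at each time and the AD groups 6, 5 and 3. In the 12-month cohort the Ctrl groups held 5, 6 and 7 libraries and the AD groups 6, 6 and 7. All groups were injected, so no group shows the hippocampus without an injection. Whether the age is that at injection or at sampling, where and how much extract was given, and whether libraries come from separate animals are not stated in the labels. The p-values therefore measure the spread from library to library, which may be technical. Each age has its own table, so age, cohort and table cannot be told apart.

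The proteasome is the main protease of the cytosol and nucleus for proteins tagged with ubiquitin. Its 20S core is a barrel of alpha and beta rings whose beta subunits Psmb5, Psmb6 and Psmb7 cut peptide bonds, and the 19S cap binds ubiquitin, removes it, unfolds the protein with a ring of ATPases and feeds it through the gate of the alpha ring. Other activators open the same gate without the cap, and neurons depend on the system for synaptic protein turnover and for clearing damaged or aggregation-prone proteins such as tau.

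Subunit genes are known to be regulated together through their promoters, so stretches before the start sites of 4 genes that the results return to are shown. RefSeq entries on GRCm38.p6 covered 32 of the 39 genes with 35 start sites; Psma8, Psmb1, Psmb2, Psmb7, Psmc3, Psmd3 and Psmd7 had none. Each stretch runs 5′ to 3′ on the strand of the gene, holds up to 250 bases before the start site and ends before any annotated exon. Psmb5 and Psmb6, catalytic subunits of the core, lie at chr14:54618023-54618245 on the minus strand and chr11:70525107-70525356 on the plus strand, and capitals mark TGACNNNGC, the core of the antioxidant response element. Psmc6, a cap ATPase, lies at chr14:45329574-45329787 and Psme3, the nuclear activator, at chr11:101315963-101316212, both on the plus strand, and capitals mark CCGGAAG, the core bound by ETS factors.
Psmb5: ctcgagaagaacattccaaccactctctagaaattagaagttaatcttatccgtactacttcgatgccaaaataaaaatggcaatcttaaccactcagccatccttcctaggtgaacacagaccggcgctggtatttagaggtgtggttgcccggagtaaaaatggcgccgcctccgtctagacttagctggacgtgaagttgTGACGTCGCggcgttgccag
Psmb6: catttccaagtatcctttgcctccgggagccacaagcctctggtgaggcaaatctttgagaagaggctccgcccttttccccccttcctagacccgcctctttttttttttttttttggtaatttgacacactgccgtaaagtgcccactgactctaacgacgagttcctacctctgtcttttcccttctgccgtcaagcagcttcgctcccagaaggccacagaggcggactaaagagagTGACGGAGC
Psmc6: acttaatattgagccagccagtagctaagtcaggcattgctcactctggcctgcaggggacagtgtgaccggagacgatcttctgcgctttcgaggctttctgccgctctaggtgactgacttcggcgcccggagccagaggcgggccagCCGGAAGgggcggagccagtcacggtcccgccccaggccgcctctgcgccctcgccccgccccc
Psme3: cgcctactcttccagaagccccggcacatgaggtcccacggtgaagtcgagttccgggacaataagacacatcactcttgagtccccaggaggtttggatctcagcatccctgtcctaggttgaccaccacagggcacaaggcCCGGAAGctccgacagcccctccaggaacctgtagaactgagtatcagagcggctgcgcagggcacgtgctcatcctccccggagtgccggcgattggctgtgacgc

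Over the full 250 bases and both strands, TGACNNNGC was found in 5 of the 32 genes (15.6%; Psmb5, Psmb6, Psmc6, Psmd12 and Psmd9), against 10.2% of 32851 promoters of all genes. CCGGAAG stood before 11 of the 32 genes (34.4%) and 6.91% of all promoters. They were Psma6, Psmc1, Psmc2, Psmc6, Psmd11, Psmd12, Psmd2, Psmd4, Psmd6, Psme3 and Psme4. The GC box GGGCGG stood before 20 (62.5%, against 32.7%) and CCAAT before 12 (37.5%, against 33.8%). TTTCNNTTTC, the repeat of interferon response elements, was found before Psmb3, Psmd4 and Psmd9 (9.38%, against 2.98%), and not in these windows of Psme1 and Psme2. Motifs can share bases, and a match describes letters and not a bound site.

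The genes lie on 16 chromosomes, 8 of them on chromosome 11 and 5 each on chromosomes 2 and 14. Psme1 and Psme2, which encode the subunits of 1 activator, are separated by 5911 bases on chromosome 14. An exon of 10 of the genes lies over another annotated gene, for 9 of them on the opposite strand (Psma4, Psma5, Psmb7, Psmc3, Psmd1, Psmd3, Psmd9, Psmd13 and Psme1, the last with Emc9). Psmb5 holds Mir686 on its own strand. Whether counting used strand is not given in the sources used here, so reads of these neighbours could be assigned to either gene. Psme2 has a near copy, Psme2b, whose mean value was 1.35 in the 3-month and 1.64 in the 12-month libraries beside 20.9 and 22.7 for Psme2, so a small share of Psme2 reads may be counted there.

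Total depth ran from 42462638 to 65907005 reads per library. None of the genes of the neuron, astrocyte, oligodendrocyte, microglia and hippocampus lists was at 0 in any library. The summed hippocampus markers (Prox1, Wfs1, Zbtb20 and Neurod6) ran from 630.9 to 1015 in deposited values, but other brain regions express such genes too, and the label was not tested against those regions. Choroid plexus markers (Ttr, Kl, Folr1, Clic6 and Kcne2) summed to 54.74 in 1 library and 9976 in another. Oligodendrocyte markers ran from 3025 to 7526 and microglial markers from 373.7 to 668.5. In 2 AD libraries of the 12-month cohort Xist, the RNA of female cells, was present at 24.3 (1 mpi, replicate 3) and 10.9 (5 mpi, replicate 6) beside Y-linked genes that summed to 171 and 203. The AD difference averaged over time and the member calls between cohorts in AD libraries are given below with and without these 2 libraries. Values of single AD groups and AD calls of other pathway genes and markers are given only with them.

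Per kb of 1 transcript, the core and cap genes stood between 22.2 and 99.1, and the 3 assembly chaperones and Psme4 stood below them. Levels are deposited values, depth-scaled reads with 1 scaling factor per library, divided by the length of 1 transcript in kb, as the mean of the 12 group means. Without Psma8, the 38 genes ran from 8.72 per kb (Psmd9) to 99.1 per kb (Psmc5), 11.4-fold, with a median of 51.2. Alpha ring genes ran from 31.5 (Psma2) to 90.2 (Psma6), and beta ring genes from 23.9 (Psmb5) to 83.6 (Psmb4). Psmb5, the chymotrypsin-like subunit, was the lowest of the beta ring, while the other catalytic subunits Psmb6 (caspase-like) and Psmb7 (trypsin-like) both stood at 81.3. The 6 ATPases ran from 46.4 (Psmc6) to 99.1 (Psmc5), which is 2.14-fold, beside 2.87-fold in the alpha ring and 3.35-fold among the other cap subunits.

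The 11 other cap subunits ran from 22.2 per kb (Psmd11, a lid scaffold) to 74.2 (Psmd2, which docks ubiquitin receptors and shuttle proteins). Psmd4, a ubiquitin receptor of the cap, stood at 56.7 and Psmd14, the deubiquitinase that removes ubiquitin chains before degradation, at 55.4. The assembly chaperones stood at 8.72 (Psmd9), 10.1 (Psmd10) and 15.2 (Psmd5). The activators stood at 9.58 (Psme4, the single-chain activator of nuclei), 22.6 (Psme2), 28.6 (Psme1) and 40.4 (Psme3). Psma8, the alpha subunit of sperm cells, was at 0.261 per kb, with group means between 0.308 and 0.548 in deposited values. The order of genes depends on the length used. With the union of all exons in place of 1 transcript, Psmb7 moved from rank 5 to 18 and Psma7 from 10 to 28, while Psmc5, Psma6 and Psmc1 stayed the first 3 and Psmd9 the last before Psma8. The cap subunit Psmd11 then stood at 9.89 per kb, level with the chaperones Psmd10 (9.87) and Psmd5 (9.26), so the gap between cap subunits and chaperones closed.

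**Figure D1:**
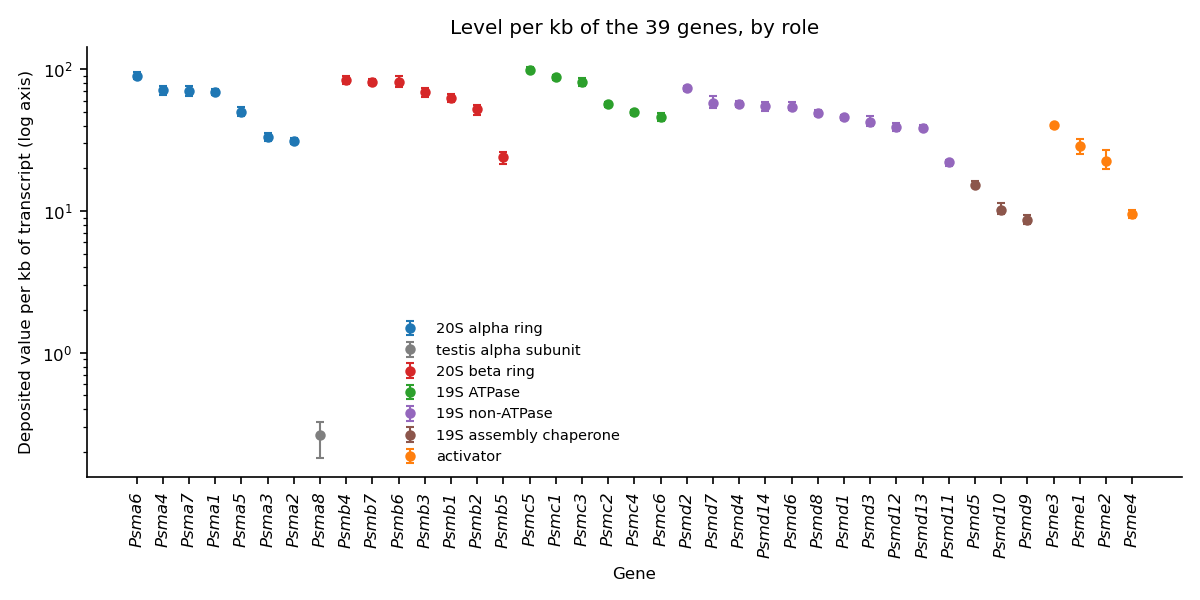
Level of each gene in deposited values per kb of transcript (log axis), in order of role and level. Points are means of the 12 group means and bars run from the lowest to the highest group mean. The core and cap genes sit between 22.2 and 99.1 per kb, and Psma8 sits at 0.261.

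Levels moved little between groups. The highest group mean was 1.07 times the lowest for Psmd1, the cap scaffold, and 1.36 times for Psme2, which was the widest of the 38 genes other than Psma8. Psme1 followed with 1.27, Psmb5 with 1.21, and Psmb6 and Psmd7 with 1.2 each. The spread of Psma8 was 1.78 on a level of less than 1. Since these are bulk tissue libraries, fewer cells of a type and less RNA per cell cannot be told apart in any of the differences below.

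AD extract was compared with Ctrl extract to ask whether the proteasome genes respond to the injected material. No member passed the test in any of these comparisons, and the differences were small. All tests used limma on log2(value + 1) with Benjamini-Hochberg adjustment over all genes of the fit, and a gene is called at an adjusted p under 0.05. In the 12-month cohort, averaged over the 3 times, 0 of 39 were called, against 0.00996% of all genes. The members' median difference was -0.017 on the log2 scale, beside -0.0013 for all genes, and 30 of the 39 differences were negative. At an unadjusted p under 0.05 stood 4 of the 39 (10.3%), against 15.3% of all genes, so the share of members was not above the background. The quasi-likelihood test of edgeR and DESeq2 on recovered reads also called 0 members, with 4 and 3 at an unadjusted p under 0.05. Without the 2 libraries that held Xist beside Y-linked genes, 0 members were called as well.

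Those 4 members all had lower values in AD libraries, and none passed. Psme3, the activator of nuclei that degrades unstructured regulators without ubiquitin, ran from 98.1 to 116 with a median of 104 in the 19 AD libraries and from 102 to 116 with a median of 109 in the 18 Ctrl libraries. The groups overlapped, and 3 of 19 AD libraries exceeded the Ctrl mean of their own time after injection. The difference was -0.055 (SE 0.019, adjusted p = 0.19) by limma. Psmc1, a cap ATPase that helps open the gate, ran from 116 to 148 with a median of 136 in AD and from 132 to 155 with a median of 139.9 in Ctrl libraries, a difference of -0.058 (SE 0.026, adjusted p = 0.289). Psma1, an alpha ring subunit, differed by -0.055 (SE 0.025, adjusted p = 0.287) and the ATPase Psmc2 by -0.050 (SE 0.024, adjusted p = 0.32) in the same limma fit. The highest difference was that of Psme1, 0.048, so all 39 lay between -0.058 and 0.048.

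The subunits that cut were close between extracts in the 12-month cohort. Psmb5 ran from 16.9 to 26.3 with a median of 21.8 in AD and from 19.1 to 28.3 with a median of 22.1 in Ctrl libraries, a difference of -0.019 (SE 0.049, adjusted p = 0.888) by limma. Psmb6 ran from 55.4 to 72.1 with a median of 61.2 in AD and from 54.6 to 70.0 with a median of 61.4 in Ctrl libraries, a difference of 0.0078 (SE 0.033, adjusted p = 0.934). Psmb7 ran from 81.0 to 122 with a median of 92.1 in AD and from 84.4 to 106 with a median of 94.7 in Ctrl libraries, a difference of -0.044 (SE 0.034, adjusted p = 0.548). For each of the 3 the ranges overlapped. Of the cap, the differences were -0.0089 (SE 0.030, adjusted p = 0.92) for the deubiquitinase Psmd14 and -0.022 (SE 0.026, adjusted p = 0.719) for the receptor Psmd4 by limma.

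Psme1, Psma8 and Psmd9 had the highest differences of the 12-month cohort. Psme1 ran from 28.2 to 37.9 with a median of 33.6 in AD and from 27.4 to 38.1 with a median of 32.4 in Ctrl libraries. The difference was 0.048 (SE 0.035, adjusted p = 0.531) by limma, and 13 of 19 AD libraries exceeded the Ctrl mean of their own time. Psmd9 ran from 20.4 to 25.4 with a median of 23.8 in AD and from 18.9 to 28.0 with a median of 22.6 in Ctrl libraries, a difference of 0.028 (SE 0.034, adjusted p = 0.725). Psma8 ran from 0.166 to 0.976 with a median of 0.413 in AD and from 0.154 to 0.941 with a median of 0.410 in Ctrl libraries, a level at which log2(value + 1) understates folds. Neither Psme2 (0.022 (SE 0.040, adjusted p = 0.839)) nor Psme4 (0.0049 (SE 0.032, adjusted p = 0.959)) passed in the same limma fit.

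By role, the differences of the 12-month cohort were negative for 6 of 6 ATPases (median -0.028), 11 of 11 other cap subunits (-0.026), 6 of 7 beta ring genes (-0.017) and 5 of 7 alpha ring genes (-0.0083). The activators had 3 of 4 positive differences and the chaperones 2 of 3. These directions are counts of values that did not pass, and genes of 1 complex in the same libraries are not independent. In the same comparison none of the markers was called. All 6 neuron markers had lower AD values (median -0.0893), while all 7 microglial (0.142), all 6 oligodendrocyte (0.176), all 5 choroid plexus (0.836) and 4 of 5 astrocyte markers (0.0974) had higher ones. Summed neuron markers ran from 5288 to 6507 in AD and from 5640 to 6833 in Ctrl libraries, and microglial markers from 424.9 to 668.5 and from 407.9 to 545.4. Oligodendrocyte markers ran from 3489 to 5393 in AD and from 3130 to 4516 in Ctrl libraries, and choroid plexus markers from 172.3 to 9976 and from 108.0 to 5403. With the oligodendrocyte or the choroid plexus markers as a covariate 0 members were called, and the part of the neuron, microglial and astrocyte markers was not tested. The median of the members was between -0.031 and -0.0093 when each library was left out in turn, and between -0.018 and -0.0038 under the other settings.

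At the single times of the 12-month cohort, 0 of 39 were called each time. All genes had 0.00498% called at 1 mpi, 0% at 3 mpi and 0.0548% at 5 mpi. At 1 mpi, 5 members (12.8%) had an unadjusted p under 0.05, against 12.1% of all genes, all with lower AD values (Psmb2, Psmc1, Psmd1, Psmd2 and Psme3). Psmd2 ran from 203 to 216 with a median of 209 in AD libraries and stood at 213, 219, 216, 244 and 226 in the Ctrl libraries, a difference of -0.095 (SE 0.041, adjusted p = 0.344) by limma. Its groups overlapped, although no AD library was above the Ctrl mean. At 3 mpi no member had an unadjusted p under 0.05, against 3.96% of all genes, by limma, edgeR or DESeq2, and the members' median was 0.012.

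At 5 mpi, 6 members (15.4%) had an unadjusted p under 0.05, against 8.49% of all genes, and the members' median was -0.043 beside 0.00031 for all genes. Psmc2, Psmd6, Psmd8, Psma1 and Psme3 had lower values in AD libraries. Psmc2 ran from 88.7 to 101 with a median of 98.3 in 7 AD libraries and from 93.2 to 113 with a median of 103 in 7 Ctrl libraries, a difference of -0.11 (SE 0.039, adjusted p = 0.433) by limma. Psmd9, a chaperone of cap assembly, had the opposite sign. It ran from 22.8 to 25.4 with a median of 24.5 in AD and from 18.9 to 25.2 with a median of 22.2 in Ctrl libraries, a difference of 0.15 (SE 0.055, adjusted p = 0.464) by limma. All 6 ATPases and all 11 other cap subunits had negative differences at 5 mpi, with medians of -0.054 and -0.051. At 3 mpi 10 of the 11 cap subunits and 4 of the 6 ATPases had positive ones, so the sign did not hold over time. The change of the AD difference from 1 to 5 mpi had 0 of 39 called (0.00498% of all genes), and 3 members at an unadjusted p under 0.05, against 5.83% of all genes.

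In the 3-month cohort, averaged over time, 0 of 39 were called by limma, edgeR or DESeq2, against 0% of all genes by limma. No member had an unadjusted p under 0.05, against 3.95% of all genes. The median was -0.014 beside 0.00041 for all genes, and 28 of 39 differences were negative, among them 7 of 7 in the alpha ring. The lowest was that of Psmd14, -0.053 (SE 0.034), and the highest, 0.029, that of an assembly chaperone. Psmd14 ran from 69.3 to 89.4 with a median of 79.5 in AD and from 76.6 to 95.8 with a median of 82.6 in Ctrl libraries, and 3 of 14 AD libraries exceeded the Ctrl mean of their own time. Its adjusted p by limma was 1. The catalytic Psmb5, Psmb6 and Psmb7 differed by -0.014 (SE 0.040), 0.0076 (SE 0.034) and -0.035 (SE 0.032). Psma7 ran from 59.1 to 70.6 with a median of 64.8 in AD and from 57.5 to 74.2 with a median of 68.3 in Ctrl libraries and differed by -0.040 (SE 0.032). Psma8 ran from 0.222 to 0.720 with a median of 0.348 in AD and from 0.243 to 0.687 with a median of 0.422 in Ctrl libraries. Among the highest differences, Psmd8 of the lid ran from 67.6 to 84.4 with a median of 75.0 in AD and from 69.5 to 81.4 with a median of 73.2 in Ctrl libraries. Psmc5, the most abundant ATPase, ran from 118 to 146 with a median of 131 in AD and from 122 to 143 with a median of 132 in Ctrl libraries. The chaperone Psmd9 ran from 20.6 to 24.3 with a median of 22.1 in AD and from 19.6 to 23.5 with a median of 22.0 in Ctrl libraries. All these ranges overlapped. By time, 0 of 39 were called at 1, 3 and 5 mpi, against 0%, 0% and 0% of all genes. At an unadjusted p under 0.05 stood 1 member at 1 mpi (2.56%, against 5.04%), 0 at 3 mpi (against 4.56%) and 1 at 5 mpi (2.56%, against 4.62%) by limma, and edgeR and DESeq2 gave 1, 0 and 1.

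The member of 1 mpi was Psme1, with values of 28.1, 28.7, 26.7, 26.2 and 30.6 in Ctrl libraries and from 27.0 to 32.3 with a median of 30.5 in AD libraries. The member of 5 mpi was Psme2, with 19.1, 18.3 and 19.8 in the 3 AD libraries and 21.3, 21.1, 22.2, 20.47 and 20.46 in the Ctrl libraries. The groups of Psme2 did not overlap, yet the difference of -0.14 (SE 0.063, adjusted p = 1) was not called by limma. Psma7, an alpha ring subunit, also had groups that did not overlap at 3 mpi, by the margin of 67.00 in the highest AD and 67.04 in the lowest Ctrl library. Its values were 63.0, 64.3, 62.2, 67.0 and 65.7 in AD and 67.7, 74.2, 68.6, 67.0 and 68.3 in Ctrl libraries, a difference of -0.10 (SE 0.054, adjusted p = 0.961) by limma. In each of these comparisons 1 of 39 members (2.56%) had groups that did not overlap, against 4.2% of all genes tested at 5 mpi and 2.07% at 3 mpi. The change of the AD difference from 1 to 5 mpi had 0 of 39 called (0% of all genes), with Psme1 (-0.21) and Psme2 (-0.19) at an unadjusted p under 0.05, against 4.07% of all genes. The test of whether the AD difference itself differed between the cohorts called 0 of 39 (0% of all genes) and had 0 at an unadjusted p under 0.05, against 5.52%, by limma, edgeR and DESeq2.

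**Figure D2:**
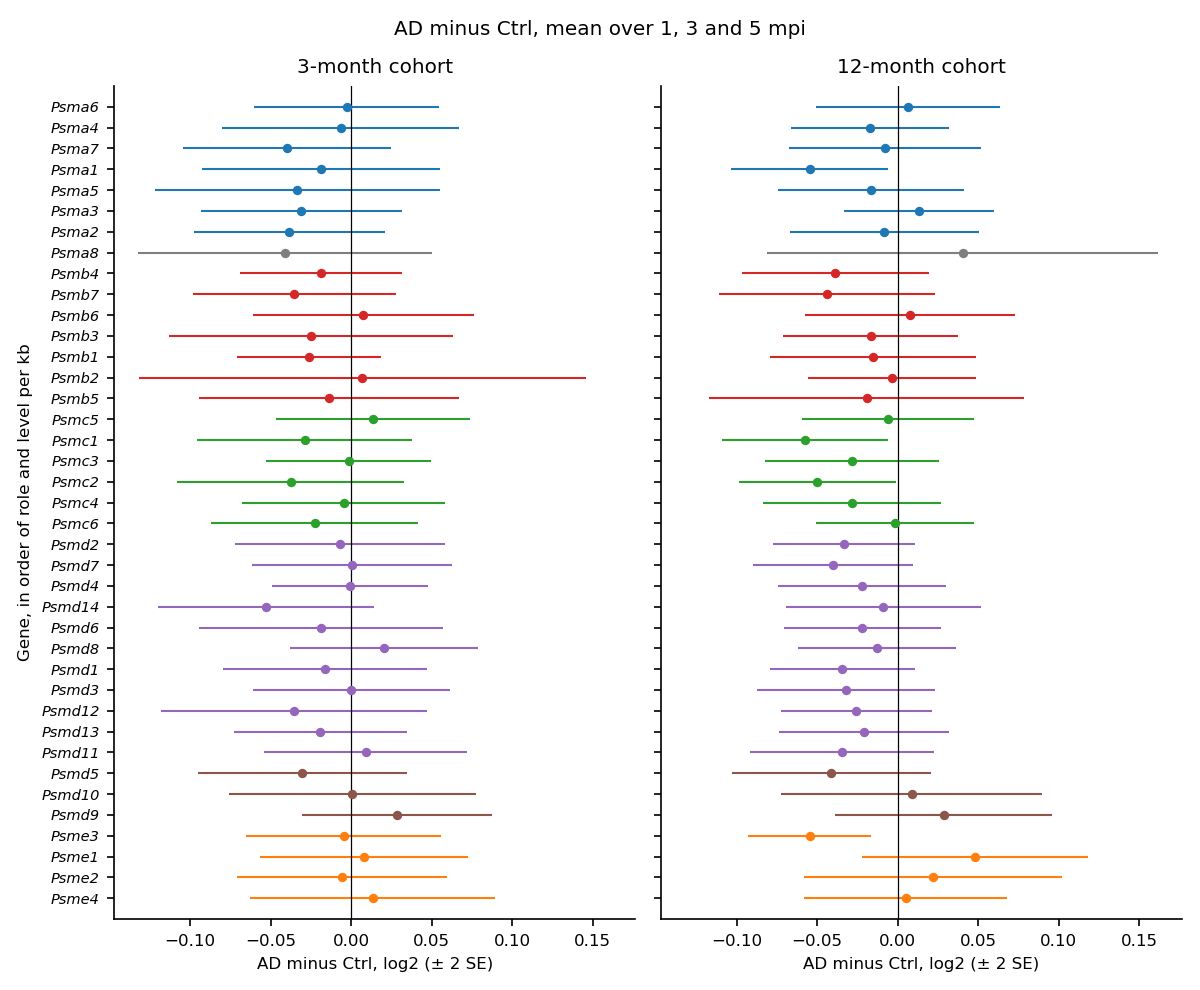
AD minus Ctrl of each gene on the log2 scale, averaged over 1, 3 and 5 mpi, in the 3-month (left) and 12-month cohort (right). Points are limma estimates and bars are 2 SE, coloured by role as in the plot of levels. All 12-month points lie between -0.058 and 0.048, and all 3-month points between -0.053 and 0.029.

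The time after injection was compared within each extract. Psme1 was the 1 member called, and it was higher at 5 than at 1 mpi in Ctrl libraries of the 3-month cohort. Psme1 encodes the alpha subunit of the interferon-inducible activator that opens the core gate for peptides. At 1 mpi its values were 28.1, 28.7, 26.7, 26.2 and 30.6. The libraries of 3 mpi gave 34.1, 30.8, 32.2, 29.7 and 33.1, and those of 5 mpi 29.7, 34.0, 32.3, 30.2 and 33.7. The mean rose from 28.0 ± 1.75 to 32.0 ± 1.96 (SD, n = 5 each), and all 5 libraries of 5 mpi stood above the 1 mpi mean, although the groups overlapped. The difference was 0.18 (SE 0.054, adjusted p = 0.0308) by limma.

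That made 1 of 39 members called (2.56%), against 9.19% of all genes (5.13% higher and 4.06% lower), a share below the background. The call of Psme1 rested on single libraries. Without 1 mpi replicate 1, 3 or 4 the adjusted p was 0.058, 0.0792 or 0.071, and without 5 mpi replicate 2, 3 or 5 it was 0.0737, 0.0628 or 0.0864, while the difference stayed between 0.16 and 0.22. With the 2 groups fitted alone the adjusted p was 0.0825, and with the GC trend removed the difference was 0.12 (adjusted p = 0.127). Markers moved in the same comparison. Called lower were 2 of 6 oligodendrocyte, 1 of 7 microglial, 1 of 4 hippocampus (Zbtb20) and 2 of 3 ependyma markers (Ccdc153 and Tmem212), and 1 of 6 neuron markers, Rbfox3, was called higher. Summed choroid plexus markers ran from 2295 to 5847 at 1 mpi and from 85.68 to 4264 at 5 mpi, with none of the 5 genes called, and with these markers as a covariate the difference of Psme1 was 0.26 (adjusted p = 0.00384 by limma).

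Psme1 took the opposite direction in the 12-month cohort without passing there. In Ctrl libraries it stood at 32.7, 38.1, 36.1, 32.7 and 34.0 at 1 mpi and ran from 27.4 to 32.8 with a median of 31.4 at 5 mpi, a difference of -0.18 (SE 0.062, adjusted p = 0.48) by limma. The 2 ranges overlapped only between 32.7 and 32.8. In AD libraries it ran from 32.5 to 37.9 with a median of 35.7 at 1 mpi and from 28.2 to 34.5 with a median of 31.3 at 5 mpi, a difference of -0.17 (SE 0.059, adjusted p = 0.15). The difference between the cohorts in the Ctrl change was tested after it had been seen. It was -0.35 (SE 0.084, adjusted p = 0.011) by limma, with 1 of 39 members called (2.56%) against 2.77% of all genes (1.38% higher and 1.4% lower). It stayed called without any 1 library, from -0.39 to -0.32, and was -0.28 (adjusted p = 0.0601) with the GC trend removed.

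Psme2, which encodes the beta subunit of the same activator, had the lowest difference of all members between 5 and 1 mpi in AD libraries of the 12-month cohort. It ran from 23.6 to 27.9 with a median of 25.6 at 1 mpi and from 20.2 to 24.1 with a median of 22.4 at 5 mpi, and the difference of -0.20 (SE 0.067, adjusted p = 0.15) was not called by limma. In Ctrl libraries it stood at 20.2, 27.9, 25.8, 22.7 and 22.7 at 1 mpi, and ran from 19.4 to 25.4 with a median of 21.4 at 5 mpi. In the same AD comparison 1 of 7 microglial (median of the list -0.215) and 1 of 5 astrocyte markers (Aqp4; -0.245) were called lower. The 5 choroid plexus markers (-1.49) and the 3 ependyma markers (-0.408) all had lower values at 5 mpi without being called, and all 6 neuron markers (0.0594) had higher ones. Their part in the values of Psme2 was not tested.

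In the 12-month cohort 0 of 39 were called between 1 and 5 mpi in Ctrl libraries (0.0249% of all genes) and 0 in AD libraries (0.762%), by limma, edgeR or DESeq2. At an unadjusted p under 0.05 stood 3 members in Ctrl (7.69%, against 6.81%) and 6 in AD libraries (15.4%, against 14%), all 6 with lower values at 5 mpi (Psma1, Psma4, Psmd6, Psmd8, Psme1 and Psme2). In the AD libraries of the 3-month cohort 0 of 39 were called by limma, against 5.69% of all genes, and 3 had an unadjusted p under 0.05 (7.69%, against 21.9%). Those were Psmb5 and Psmd4 with higher and Psme2 with lower values at 5 mpi. In that comparison all 5 choroid plexus markers were called lower, Ttr by -4.17 on the log2 scale, and with these markers as a covariate 0 members were called. Also called lower were 3 of 7 microglial (median of the list -0.376), 2 of 6 oligodendrocyte (-0.414), 2 of 3 ependyma (-0.643) and 1 of 5 astrocyte markers (-0.081). All 7 beta ring genes had positive differences between 1 and 5 mpi in the 3-month cohort, with medians of 0.075 in Ctrl and 0.095 in AD libraries. In the Ctrl libraries of the 12-month cohort all 7 were negative, with a median of -0.060. In its AD libraries 2 of 7 were positive, with a median of -0.090 and values from -0.109 to 0.0835. None of these beta ring differences passed, and genes of 1 complex in the same libraries are not independent. Psmb5 is given in Ctrl libraries, where it stood at the ends of the beta ring values. Those ran from 0.0149 to 0.131 in the 3-month and from -0.115 to -0.0159 in the 12-month cohort. Its Ctrl libraries stood at 20.6, 21.0, 21.8, 17.6 and 18.4 at 1 mpi and at 21.6, 21.4, 21.9, 22.2 and 21.8 at 5 mpi in the 3-month cohort, a difference of 0.13 (SE 0.067, adjusted p = 0.215) by limma. In the 12-month cohort they stood at 20.7, 22.5, 23.4, 28.3 and 21.5 at 1 mpi and ran from 19.1 to 24.3 with a median of 20.4 at 5 mpi, a difference of -0.12 (SE 0.087, adjusted p = 0.883). Both pairs of groups overlapped.

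The other members at the ends of the Ctrl time comparison were not called. In the 3-month cohort the lid subunit Psmd3 stood at 92.4, 89.7, 92.7, 85.5 and 88.4 at 1 mpi and at 87.4, 96.0, 108, 102 and 105 at 5 mpi, a difference of 0.14 (SE 0.051, adjusted p = 0.0716) by limma, and 4 of 5 libraries of 5 mpi exceeded the 1 mpi mean. Psmc6 stood at 112, 104, 116, 94.7 and 96.9 at 1 mpi and at 102, 95.8, 92.3, 97.7 and 91.8 at 5 mpi, a difference of -0.12 (SE 0.054, adjusted p = 0.147). All 5 of its libraries of 5 mpi lay below the 1 mpi mean. Psmd1 stood at 156, 140.4, 162, 137 and 136 at 1 mpi and at 138, 139.8, 140.1, 135 and 139 at 5 mpi, a difference of -0.076 (SE 0.053, adjusted p = 0.378), and Psme4 stood at 73.1, 65.0, 65.97, 59.3 and 57.7 at 1 mpi and at 63.0, 62.5, 63.4, 52.6 and 63.0 at 5 mpi, a difference of -0.074 (SE 0.064, adjusted p = 0.485). In the 12-month cohort the chaperone Psmd10 stood at 16.2, 14.3, 14.9, 13.2 and 14.2 at 1 mpi and ran from 14.8 to 17.5 with a median of 16.8 at 5 mpi, a difference of 0.16 (SE 0.072, adjusted p = 0.65) by limma, where all 7 libraries of 5 mpi exceeded the 1 mpi mean. Psmc6 stood at 109.7, 106, 105, 105 and 107 at 1 mpi and ran from 99.5 to 120.5 with a median of 111 at 5 mpi, a difference of 0.050 (SE 0.043, adjusted p = 0.912). Psma8 stood at 0.320, 0.155, 0.313, 0.407 and 0.348 at 1 mpi and ran from 0.263 to 0.682 with a median of 0.470 at 5 mpi, a difference of 0.19 (SE 0.11, adjusted p = 0.801). Psmc6 and Psme1 were thus at the ends of this comparison in both cohorts, with opposite signs.

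**Figure D3:**
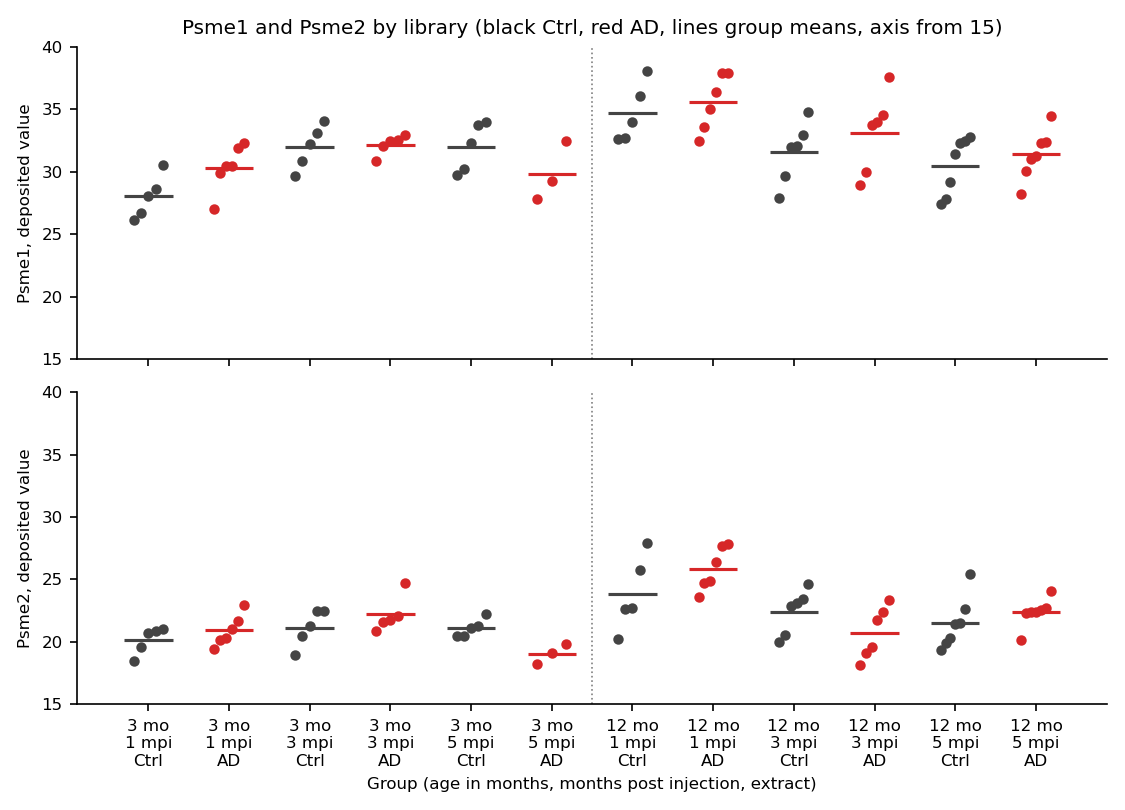
Psme1 (top) and Psme2 (bottom) in each library, in deposited values on an axis that starts at 15, by group in order of age, months post injection and extract. Points are libraries (black Ctrl, red AD) and lines are group means. Psme1 rises from 28.0 to 32.0 in Ctrl libraries of the 3-month cohort and stands at 34.7 and 30.5 at the same times of the 12-month cohort.

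The comparison with the most members called was that of the 12-month with the 3-month cohort, averaged over time, with both tables on 1 scale. In Ctrl libraries 17 of 39 were called (43.6%), 11 higher and 6 lower at 12 months, against 20.8% of all genes (10% higher and 10.8% lower). In AD libraries 19 of 39 were called (48.7%), 13 higher and 6 lower, against 20.2% (10.2% higher and 10.1% lower). With each table as deposited, without the joint scaling, the split was 14 higher and 4 lower in Ctrl and 14 and 3 in AD libraries. Of all genes, 21.2% were called in that fit in Ctrl libraries (12% higher and 9.26% lower) and 20.3% in AD libraries (11.7% and 8.6%). In the joint scaling, the shares of 43.6% and 48.7% of members stood above the background of all 21275 genes tested, which was not matched to the level of the members. The difference from it was not itself tested. Calls among genes with a mean log2 level of at least 3 are given by class of GC content below. In Ctrl libraries they were more frequent in every such class than among all genes, so part of the excess goes with level. The changes went both ways within each ring and cap part, so the members' median was only 0.013 in Ctrl and 0.029 in AD libraries, beside -0.0088 and -0.0047 for all genes. Ctrl and AD comparisons use different libraries, and each is given in its own right. Where libraries of 12 months are counted above the 3-month mean, that mean is of the same time and extract. The differences were all below 0.18 on the log2 scale, and every pair of ranges overlapped.

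In the alpha ring, 4 of 7 genes were higher at 12 months in both extracts. Psma5 ran from 58.1 to 72.5 with a median of 66.5 in the 12-month libraries and from 53.0 to 73.5 with a median of 59.1 in the 3-month libraries of Ctrl extract, a difference of 0.13 (SE 0.036, adjusted p = 0.00505) by limma with 16 of 18 libraries above the 3-month mean. With AD extract all 19 libraries of 12 months stood above the 3-month mean of Psma5, a difference of 0.15 (SE 0.037, adjusted p = 0.00172). Psma4, whose tail helps close the gate, ran from 78.3 to 92.7 with a median of 86.0 in the 12-month libraries and from 72.9 to 96.3 with a median of 78.6 in the 3-month libraries of Ctrl extract, with differences of 0.11 (SE 0.030, adjusted p = 0.00791) in Ctrl and 0.098 (SE 0.031, adjusted p = 0.0179) in AD libraries by limma. The highest 3-month library reached 96.3, above every 12-month library, although 17 of 18 libraries of 12 months stood above the 3-month mean.

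Psma3 ran from 92.6 to 113 with a median of 99.0 in the 12-month libraries and from 84.8 to 105 with a median of 91.2 in the 3-month libraries of Ctrl extract. Its difference was 0.095 (SE 0.027, adjusted p = 0.0073) in Ctrl and 0.14 (SE 0.028, adjusted p = 0.000109) in AD libraries by limma, and 17 of 18 and 18 of 19 libraries stood above the 3-month mean. Psma6 ran from 87.6 to 112 with a median of 96.5 in the 12-month libraries and from 83.4 to 98.5 with a median of 90.9 in the 3-month libraries of Ctrl extract, with differences of 0.086 (SE 0.030, adjusted p = 0.0294) and 0.098 (SE 0.030, adjusted p = 0.016). Psma7 was the alpha subunit that was lower. It ran from 55.0 to 69.3 with a median of 62.2 in the 12-month libraries and from 58.3 to 74.5 with a median of 68.6 in the 3-month libraries of Ctrl extract, and 2 of 18 libraries of 12 months stood above the 3-month mean. The difference was -0.12 (SE 0.031, adjusted p = 0.00392) in Ctrl and, just missing the call, -0.086 (SE 0.032, adjusted p = 0.0501) in AD libraries by limma. Psma2, the lowest alpha subunit per kb, ran from 85.5 to 111 with a median of 90.7 in the 12-month libraries and from 83.2 to 99.5 with a median of 91.7 in the 3-month libraries of Ctrl extract. Psma1 and Psma2 differed by -0.0056 and 0.0049 in Ctrl libraries, and Psma8 by -0.024.

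In the beta ring the catalytic Psmb6 was lower at 12 months, and the other catalytic subunits did not pass. Psmb6 ran from 54.0 to 69.2 with a median of 61.2 in the 12-month libraries and from 61.0 to 76.8 with a median of 67.7 in the 3-month libraries of Ctrl extract, where 1 of 18 libraries stood above the 3-month mean. It ran from 54.8 to 72.2 with a median of 61.1 in the 12-month libraries and from 61.0 to 74.8 with a median of 67.5 in the 3-month libraries of AD extract. The differences were -0.15 (SE 0.034, adjusted p = 0.000535) and -0.15 (SE 0.035, adjusted p = 0.000816) by limma. Psmb5 had positive values that missed the call, 0.12 (SE 0.046, adjusted p = 0.0627) in Ctrl and 0.11 (SE 0.048, adjusted p = 0.0831) in AD libraries, and Psmb7 differed by 0.013 and 0.0058.

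The structural beta subunits divided. Psmb2 was lower and ran from 37.4 to 47.6 with a median of 43.0 in the 12-month libraries and from 41.6 to 66.3 with a median of 46.6 in the 3-month libraries of Ctrl extract, with differences of -0.13 (SE 0.048, adjusted p = 0.0435) and -0.14 (SE 0.049, adjusted p = 0.0364) by limma. Only 1 of 18 libraries of 12 months stood above the 3-month mean of Psmb2. Psmb3 was lower too and ran from 47.6 to 56.2 with a median of 51.2 in the 12-month libraries and from 47.5 to 66.2 with a median of 56.2 in the 3-month libraries of Ctrl extract, with -0.11 (SE 0.035, adjusted p = 0.0212) and -0.098 (SE 0.036, adjusted p = 0.0445). Psmb1 was higher and ran from 103 to 132 with a median of 114 in the 12-month libraries and from 101 to 113 with a median of 109 in the 3-month libraries of Ctrl extract, with 0.080 (SE 0.030, adjusted p = 0.0474) and 0.093 (SE 0.031, adjusted p = 0.0242). Psmb4 was called higher in Ctrl libraries, 0.093 (SE 0.028, adjusted p = 0.0121), and ran from 92.2 to 116 with a median of 102 in the 12-month libraries and from 88.7 to 105 with a median of 95.9 in the 3-month libraries. In AD libraries its difference was 0.075 (SE 0.029, adjusted p = 0.0549), which limma did not call.

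Among the ATPases, Psmc6 was higher and Psmc3 lower in both extracts. Psmc6 ran from 98.2 to 120.4 with a median of 107 in the 12-month libraries and from 91.8 to 118 with a median of 98.4 in the 3-month libraries of Ctrl extract, with differences of 0.097 (SE 0.028, adjusted p = 0.00961) and 0.12 (SE 0.029, adjusted p = 0.00162) by limma. Psmc3, whose tail docks into the alpha ring and opens the gate, ran from 115 to 145 with a median of 129 in the 12-month libraries and from 127 to 148 with a median of 137 in the 3-month libraries of Ctrl extract, with -0.080 (SE 0.027, adjusted p = 0.0245) and -0.10 (SE 0.027, adjusted p = 0.00357). Both genes overlapped between cohorts, with 15 of 18 and 3 of 18 Ctrl libraries above the 3-month mean. Psmc4 was called lower in AD libraries, -0.081 (SE 0.030, adjusted p = 0.0439) by limma beside -0.059 (SE 0.029, adjusted p = 0.141) in Ctrl libraries, and it ran from 61.5 to 79.9 with a median of 69.2 in the 12-month libraries and from 66.9 to 82.6 with a median of 73.1 in the 3-month libraries of AD extract. Psmc5 ran from 120.3 to 146 with a median of 127 in the 12-month libraries and from 124 to 145 with a median of 132 in the 3-month libraries of Ctrl extract. Psmc1, Psmc2 and Psmc5 differed by -0.030, -0.0018 and -0.043 in Ctrl libraries and were not called.

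Of the other cap subunits, Psmd7 had the largest difference of all members in Ctrl libraries. Psmd7 pairs with the deubiquitinase Psmd14 in the lid of the cap. It ran from 91.2 to 110.0 with a median of 96.7 in the 12-month libraries and from 80.1 to 101 with a median of 85.6 in the 3-month libraries of Ctrl extract, and all 18 libraries of 12 months stood above the 3-month mean. It ran from 82.8 to 108 with a median of 95.9 in the 12-month libraries and from 78.8 to 95.6 with a median of 86.4 in the 3-month libraries of AD extract. The differences were 0.17 (SE 0.028, adjusted p = 4.02e-06) and 0.14 (SE 0.028, adjusted p = 0.000306) by limma. Psmd14 itself ran from 82.3 to 106 with a median of 88.2 in the 12-month libraries and from 77.5 to 97.3 with a median of 82.8 in the 3-month libraries of Ctrl extract, with 0.095 (SE 0.032, adjusted p = 0.0291) and 0.14 (SE 0.033, adjusted p = 0.00131). Both partners were thus higher at 12 months.

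Psmd6 and Psmd12, further lid subunits, were higher as well. Psmd6 ran from 74.5 to 83.9 with a median of 79.5 in the 12-month libraries and from 65.99 to 88.2 with a median of 73.0 in the 3-month libraries of Ctrl extract, with all 18 libraries above the 3-month mean and differences of 0.11 (SE 0.031, adjusted p = 0.00483) and 0.11 (SE 0.032, adjusted p = 0.00657) by limma. Psmd12 ran from 70.4 to 82.8 with a median of 77.1 in the 12-month libraries and from 66.3 to 91.8 with a median of 71.8 in the 3-month libraries of Ctrl extract, with 0.094 (SE 0.032, adjusted p = 0.0259) and 0.11 (SE 0.033, adjusted p = 0.0139). Psmd3, also of the lid, was lower. It ran from 81.2 to 97.0 with a median of 89.6 in the 12-month libraries and from 87.1 to 107 with a median of 94.7 in the 3-month libraries of Ctrl extract, where 3 of 18 libraries stood above the 3-month mean, with -0.11 (SE 0.029, adjusted p = 0.00437) and -0.14 (SE 0.030, adjusted p = 0.000377). The remaining 6 cap subunits were not called in either extract, among them the receptor Psmd4, which ran from 67.9 to 82.7 with a median of 75.1 in the 12-month libraries and from 71.4 to 83.6 with a median of 76.5 in the 3-month libraries of Ctrl extract. Psmd2 ran from 197 to 241 with a median of 218 in the 12-month libraries and from 210.2 to 259 with a median of 222 in the 3-month libraries, and Psmd11 from 57.9 to 68.1 with a median of 62.0 in the 12-month libraries and from 59.1 to 75.2 with a median of 64.2 in the 3-month libraries. The Ctrl differences of the 6 ran from -0.041 (Psmd2) to 0.046 (Psmd8).

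The chaperone Psmd10 (gankyrin) was called higher in AD libraries, where it ran from 13.4 to 19.7 with a median of 14.7 in the 12-month libraries and from 11.7 to 15.4 with a median of 14.0 in the 3-month libraries, a difference of 0.11 (SE 0.040, adjusted p = 0.0452) beside 0.099 (SE 0.039, adjusted p = 0.061) in Ctrl libraries by limma. Psmd5 and Psmd9 were not called. Among the activators, Psme1 and Psme2 were called higher in AD libraries. Psme2 ran from 18.1 to 27.9 with a median of 22.5 in the 12-month libraries and from 18.2 to 24.9 with a median of 21.1 in the 3-month libraries of AD extract, with 0.13 (SE 0.039, adjusted p = 0.0126) beside 0.098 (SE 0.037, adjusted p = 0.052) in Ctrl libraries by limma. Psme1 ran from 28.1 to 38.02 with a median of 33.3 in the 12-month libraries and from 27.3 to 33.2 with a median of 31.5 in the 3-month libraries of AD extract, with 0.099 (SE 0.035, adjusted p = 0.0357) beside 0.057 (SE 0.034, adjusted p = 0.24). Psme4 ran from 51.2 to 70.2 with a median of 60.2 in the 12-month libraries and from 52.9 to 74.1 with a median of 63.3 in the 3-month libraries of Ctrl extract. Psme3 and Psme4 had negative differences that were not called, -0.0096 and -0.071 in Ctrl libraries. No member that was called in 1 extract alone is shown to differ between extracts, since 0 of 39 passed that test.

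The direction of the cohort difference moved with the base composition of the transcript. Members called higher in Ctrl libraries had a median GC content of 45.0%, from 37.0 (Psmc6) to 52.2% (Psmb4), and members called lower had 54.4%, from 51.0 (Psmb2) to 58.3% (Psmd3). Genes with a GC value and a mean log2 level of at least 3 were split into 5 equal classes of GC content (2198 or 2197 genes each). From the GC-poorest to the GC-richest, 763, 488, 289, 152 and 76 were called higher and 63, 146, 231, 400 and 590 lower in Ctrl libraries. The median difference fell from 0.069 in the GC-poorest class to -0.0625 in the GC-richest. With this trend removed from each library, 13 members were called in Ctrl libraries (9 higher and 4 lower) and 16 in AD libraries (11 and 5), of which 7 and 9 were also called without the removal. Of all genes with a GC value, 20.6% were called in that fit in Ctrl libraries (8.12% higher and 12.5% lower) and 19.6% in AD libraries (9.78% and 9.81%). The 7 were Psma5, Psma7, Psmb2, Psmb4, Psmb6, Psmd6 and Psmd7, and 6 others took their place (Psmb5, Psmd8, Psmd9, Psme1, Psme2 and Psme4). Psmc6, the most GC-poor member, went from 0.097 to -0.0023 in Ctrl libraries.

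Tissue markers moved with the cohort as well. All 5 choroid plexus markers were called lower at 12 months in Ctrl libraries, Ttr by -1.95, as were 4 of 6 oligodendrocyte, 2 of 4 hippocampus and 1 of 3 ependyma markers, and 4 of 7 microglial and 1 of 6 neuron markers were called higher. In AD libraries 0 of 5 choroid plexus, 1 of 6 oligodendrocyte (Mag, lower), 2 of 6 neuron (lower), 1 of 4 hippocampus (lower), 1 of 5 astrocyte (higher) and 6 of 7 microglial markers (higher) were called. None of the 5 sex-linked genes (Xist and Y-linked) was called, with medians of -1.33 in Ctrl and -0.479 in AD libraries. Groups mixed libraries with high Xist and libraries with high Y-linked genes, in unequal shares. At 1 mpi, Xist in Ctrl libraries stood at 0.0431, 686, 0.0221, 0.141 and 0.144 at 3 months. At 12 months it stood at 3.34, 690, 492, 2.79 and 596. The lack of a call therefore does not show that the cohorts were matched for sex. With these genes as a covariate, Psma6 (adjusted p = 0.0651), Psmb2 (0.0588) and Psmd14 (0.057) were not called by limma in Ctrl libraries. The other Ctrl calls and all AD calls of members were kept with it. With the choroid plexus markers as a covariate, 11 members were called in Ctrl libraries (3 higher and 8 lower), of which 7 were shared, and 21 in AD libraries, which included all 19. Of all genes, 16.2% were called with this covariate in Ctrl libraries (7.55% higher and 8.65% lower) and 21.9% in AD libraries (11.1% and 10.8%). The calls that held in every alternative and without any 1 library were Psma7, Psmb6 and Psmd7 in Ctrl libraries. In AD libraries they were Psma5, Psmb6, Psmd14, Psmd3, Psmd6, Psmd7 and Psme2. Without AD replicate 2 of 5 mpi of the 3-month cohort, 12 members were called in AD libraries (7 higher and 5 lower), of which 10 were among the 19, against 16.6% of all genes. Without the 2 libraries that held Xist beside Y-linked genes, 17 were called in AD libraries, against 19.5% of all genes, and Psmb2, Psmb3, Psmc4 and Psme1 were among those not kept.

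**Figure D4:**
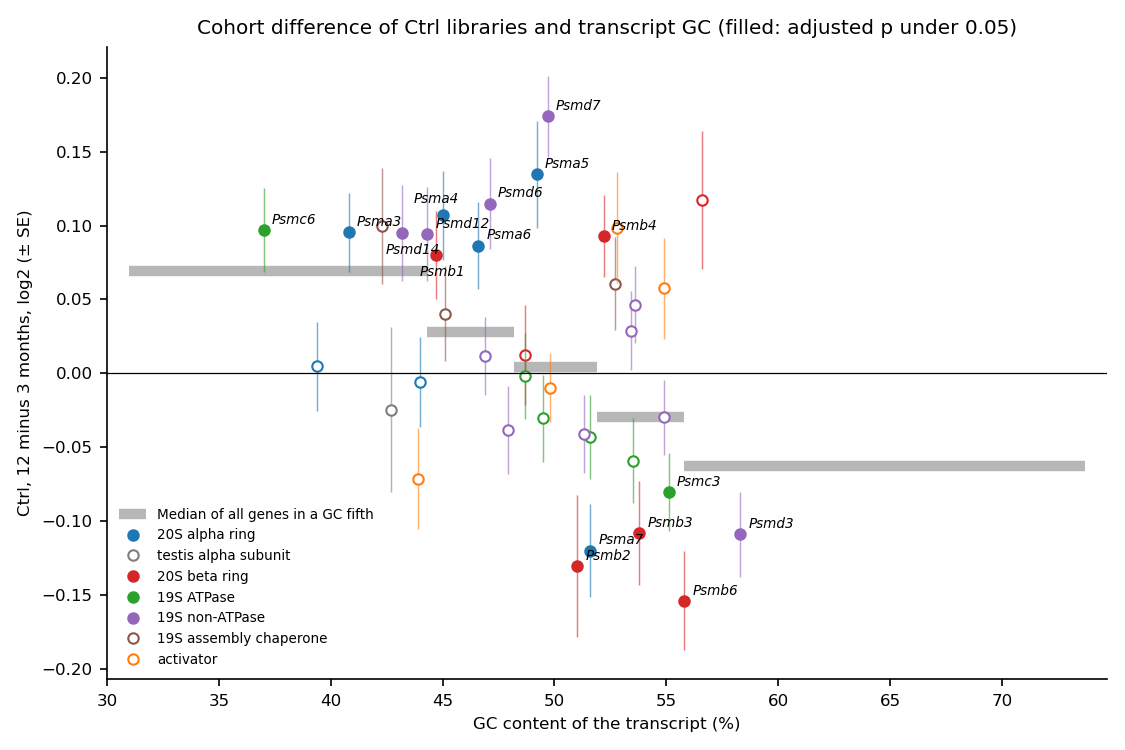
Difference between the 12-month and the 3-month cohort in Ctrl libraries (log2 scale, bars are 1 SE) against the GC content of the transcript for the 39 genes, coloured by role. Filled points were called and open points were not. Grey lines are medians of genes with a mean log2 level of at least 3 in 5 classes of GC content, from 0.069 to -0.0625. Called members with positive differences lie mostly at low and those with negative differences at high GC content, and Psmd7 at 49.7% stands highest with 0.17.

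Other genes of the pathway, 37 from fixed lists, gave the setting. Between AD and Ctrl extract none was called in any comparison. Of the immunoproteasome, Psmb8, which replaces Psmb5, stood at 7.54 ± 2.37 in the AD and 5.91 ± 2.15 in the Ctrl libraries of the 12-month cohort (SD, n = 19 and 18), a difference of 0.31 (SE 0.11, adjusted p = 0.19) by limma. Nfe2l2, a regulator of antioxidant genes, differed by 0.26 (SE 0.070, adjusted p = 0.118) in the same fit. Psmb9 and Psmb10, which replace Psmb6 and Psmb7, differed by 0.22 (SE 0.11, adjusted p = 0.35) and -0.029 (SE 0.044, adjusted p = 0.791) by limma. Nfe2l1, Pomp, Usp14, Vcp, the motor that pulls proteins from complexes, and Ubb, a ubiquitin gene, lay between -0.062 (Usp14) and 0.0054 (Nfe2l1). Keap1, the adaptor that marks Nfe2l2 for degradation, and Psmf1, an inhibitor of the core, were called higher at 5 than at 1 mpi in both extracts of the 3-month cohort, by 0.17 for both in Ctrl libraries. There the ubiquitin receptor Adrm1 was also called higher and the adaptor Ecpas lower. Of all genes, 9.19% were called in that Ctrl comparison and 5.69% in the AD comparison of the same cohort. Sem1, the small subunit of the lid, was called lower at 5 mpi in AD libraries of the 12-month cohort, -0.26 (SE 0.059, adjusted p = 0.0206) by limma. Of all genes, 0.762% were called in that comparison.

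Between the cohorts, 12 of the 37 were called in Ctrl libraries, 6 in each direction, against 20.8% of all genes. Uchl5, the deubiquitinase that docks on Adrm1, was higher, 40.8 ± 2.04 against 32.3 ± 2.15 (SD, n = 18 and 15), a difference of 0.33 (SE 0.034, adjusted p = 1.28e-10) by limma. Pomp, Psmg1 and Psmg3, which assemble the core, were higher, as were Usp14 and Ngly1. Adrm1, Keap1, Nfe2l1, Nploc4 and Nsfl1c were among the lower ones. Nfe2l1, the transcription factor that raises subunit genes when the proteasome is inhibited, differed by -0.067 (SE 0.021, adjusted p = 0.0198). In AD libraries 13 of the 37 were called, 7 higher and 6 lower, against 20.2% of all genes. The higher ones were Psmb8, Psmb9 and Nfe2l2, by 0.48, 0.32 and 0.26, and Psmg1, Psmg3, Uchl5 and Ngly1. Among the lower ones were Adrm1 (-0.14), Keap1 (-0.13), Nfe2l1 (-0.059), Nploc4 (-0.094) and Nsfl1c (-0.10). Calls of these pathway genes were not examined under the other settings.

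Within groups, the members moved together from library to library. After each group mean was taken away, the first principal component of the 38 genes without Psma8 held 48.3% of their variance and the second 12.8%. Over 11088 genes of the same minimum level the shares were 26.3% and 14.7%, a comparison that depends on the number of genes. Loadings on the first component were positive for 36 of the 38. Psme4 (-0.052) and Psme1 (-0.041) were the 2 with the other sign, and Psme2 was near 0 with 0.020. The within-group SD had a median of 0.084 on the log2 scale, from 0.064 (Psme3) to 0.14 (Psmb2), beside 0.11 for the 11088 genes. Psmb5 had 0.13 and Psma8 0.16.

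Of the 66 libraries, 14 had at least 30 of the 39 members above their group mean and 14 had at most 9. The highest median deviation was 0.15 in an AD library of 12 months and 1 mpi (replicate 2), and Ctrl replicate 3 of 3 months and 1 mpi followed with 0.15 and 37 of 39 members above the mean. AD replicate 3 of 3 months and 1 mpi had 0.14, and its choroid plexus markers deviated by -3.05 on the log2 scale. The lowest, -0.11, was that of Ctrl replicate 4 of 3 months and 1 mpi, with 1 of 39 members above the mean. Deviations of the cell type and tissue marker lists in those 4 libraries ran from -3.05 to 0.24, and their part in the shared movement was not tested. The group of 3 months, 1 mpi and Ctrl extract thus held both a library with nearly all members high and one with nearly all low. It is the reference of the 3-month Ctrl time comparisons above, those of Psme1 and the beta ring among them. On the first component Psme1 had a loading of -0.041 and Psmb5 of 0.22.

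**Figure D5:**
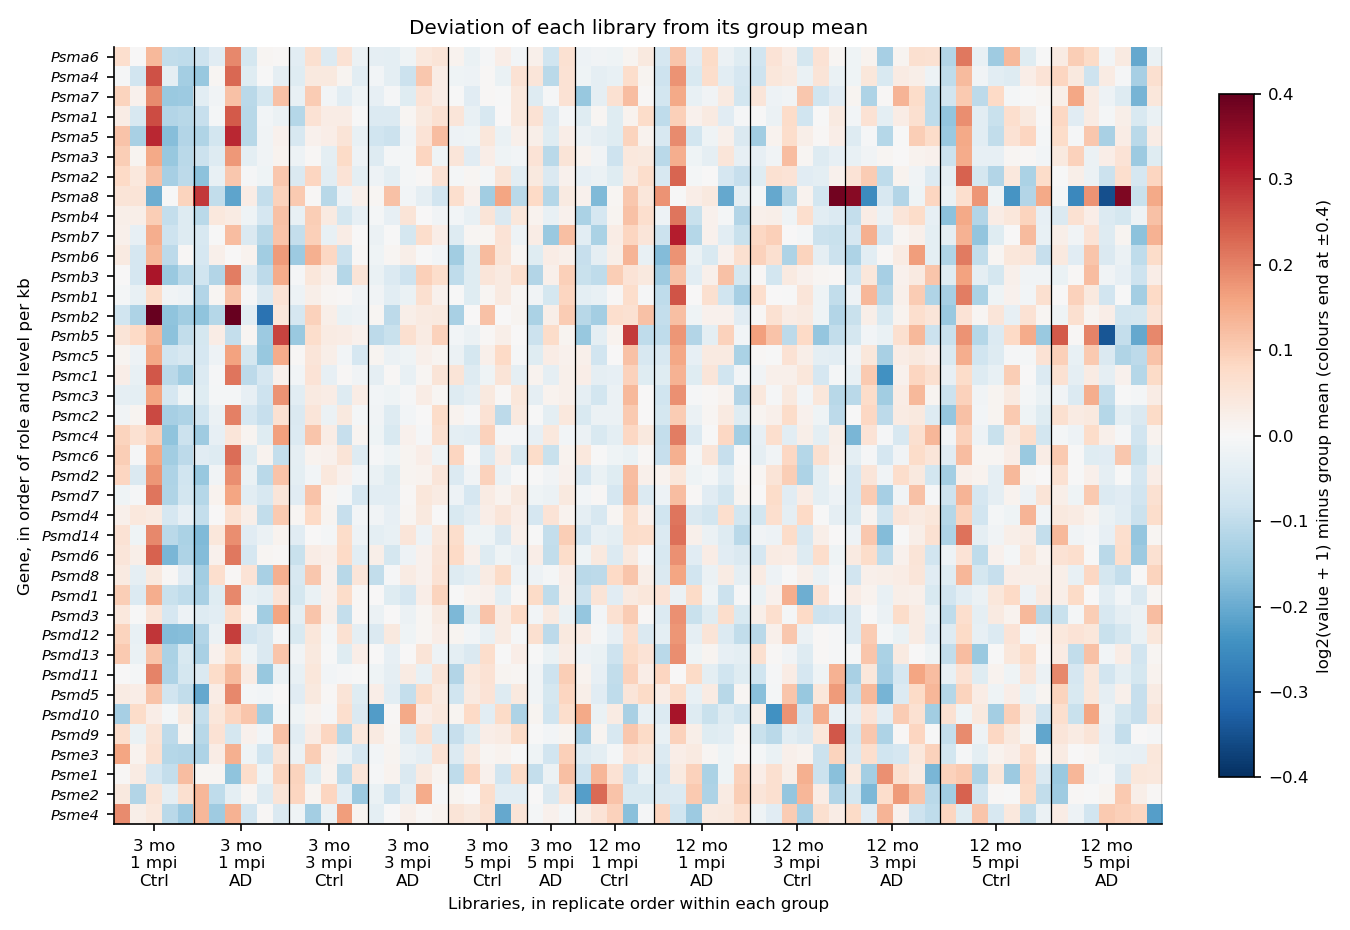
Deviation of each library from its group mean, log2(value + 1), for the 39 genes (rows, in order of role and level) and 66 libraries (columns, by group). Colours end at ±0.4. Columns of nearly uniform colour, such as replicate 3 of 3 months, 1 mpi and Ctrl extract with 37 of 39 genes above the mean, show libraries in which the members deviated together.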

How the data were processed

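Hippocampal poly(A) RNA was extracted with Qiagen RNeasy kits, libraries were made with NEBNext poly(A) selection and random priming, per the labels' protocols, and STAR, Picard and edgeR on GRCm38 are named per the submitters' processing notes. Not given in the sources used here are the gene annotation, how reads were counted and whether strand was used. The deposited values are a normalized signal in 2 tables, 1 per age: depth-scaled reads with 1 scaling factor per library (0.957 to 1.04), as their steps show. Dividing by the value of 1 read gave whole reads for 100% of values (within 0.01 reads).

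Genes passed edgeR's filterByExpr on recovered reads (19976 in the 3-month, 20084 in the 12-month and 21275 in the joint fit). log2(value + 1) was fitted with limma's trended test over all groups of a cohort, or all 12 groups rescaled together, with Benjamini-Hochberg adjustment over all genes and a threshold of 0.05. Count tests on recovered reads (edgeR, DESeq2), scaling, pseudocount 0.1, filters, covariates, a replicate block and leaving out each library were alternatives. Libraries of a group all differed by more than counting noise (chi-square at least 5.44 times its degrees of freedom). Fits were tested on simulated data. Levels between genes use the longest APPRIS-principal transcript of GENCODE vM21, whose names matched 96.3% of rows. The members, lists and tests were chosen with earlier results of these data known. All members could be named; per-library values were given for called members, the 3 highest and 3 lowest of the AD contrasts averaged over time and of the Ctrl time and age contrasts, the ends of each role per kb, and 11 fixed genes, in the contrasts where each is described. Other pathway genes were named if called or fixed, except a few that are not reported here. The software was Python 3.11.15 (numpy 2.4.6, pandas 2.3.3, matplotlib 3.10.9) and R 4.3.3 with DESeq2 1.42.0, edgeR 4.0.16 and limma 3.58.1.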

Additional observations from a re-analysis of the deposited data

Results flagged for a closer look

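In 33 of the 429 gene and group pairs with at least 4 libraries, 1 library stood apart from the rest of its group by Dixon's criterion, which chance alone meets in about 1 in 20 groups. The 33 were not spread evenly over libraries. In AD replicate 3 of 3 months and 1 mpi, 8 genes were high: Psma1 97.3, Psma3 100.2, Psma5 71.65, Psma6 101.9, Psmb2 70.36, Psmc1 162.2, Psmc6 115.7 and Psmd12 85.24 in deposited values. In AD replicate 2 of 12 months and 1 mpi, 6 were high: Psma2 111.9, Psma5 72.35, Psmb7 122.0, Psmd10 19.66, Psmd14 102.1 and Psmd6 90.5. In Ctrl replicate 3 of 3 months and 1 mpi, 4 were high: Psmb1 108.4, Psmb2 65.26, Psmb3 65.17 and Psmc3 146.1. In Ctrl replicate 2 of 12 months and 5 mpi, 3 were high: Psma3 112.6, Psmb3 56.27 and Psmd14 105.5.

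The other 12 libraries stood apart for 1 gene each. High values were Psma3 105.8 and Psma8 0.9414 (Ctrl replicates 3 and 6 of 12 months and 3 mpi), Psma7 74.18 (Ctrl replicate 2 of 3 months and 3 mpi), Psmc3 149.6 (AD replicate 6 of 3 months and 1 mpi), Psmc4 77.96 (Ctrl replicate 3 of 3 months and 5 mpi) and Psmd11 68.25 (AD replicate 1 of 12 months and 5 mpi). Low values were Psma5 60.7 and Psmb3 49.08 (Ctrl replicates 1 and 2 of 12 months and 3 mpi), Psmc5 115.2 (AD replicate 3 of 12 months and 3 mpi), Psmb2 42.68 (AD replicate 2 of 3 months and 3 mpi), Psmb5 17.94 (Ctrl replicate 1 of 3 months and 3 mpi) and Psme4 52.61 (Ctrl replicate 4 of 3 months and 5 mpi).

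The change from 1 to 5 mpi in Ctrl libraries differed between the cohorts for 4 genes by the test of that difference, taken as 12 months less 3 months on the log2 scale. The member was Psme1 (-0.3549), and the other pathway genes were Adrm1 (-0.3025), Keap1 (-0.2445) and Ecpas (0.2428). Of all genes, 2.77% were called in that test. This contrast was added after Psme1 had been seen to move in opposite directions.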

How the results depend on the processing

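Age, cohort and table cannot be told apart, libraries are not stated to be separate animals, and the GC trend, the removal of the 2 libraries with Xist beside Y-linked genes and the cohort contrast of Ctrl time were chosen after seeing the data. Over 157 values under other settings and 396 values without 1 library, each for 1 comparison in 1 refit, the 11 AD comparisons never had more than 0 members called. In some of these the library left out was outside the groups compared. In the 3-month Ctrl comparison of 5 with 1 mpi, members called were 0 with only the groups compared, 2 with the choroid plexus covariate, 2 with the oligodendrocyte covariate, 0 with the GC trend removed, and 0 to 2 without 1 library (2 without AD replicate 6 of 1 mpi or Ctrl replicate 1 of 5 mpi). Of all genes, 956, 1950, 2816 and 1580 were called under these settings in that order, beside 1836 in the main fit. The fits with 2 members and 1 library left out called 2031 and 1941 genes, and those with 0 members from 933 to 1706. The 3-month AD comparison of time gave 0 to 1 (1 without AD replicate 6 of 1 mpi, where 1355 of all genes were called, beside 1137 in the main fit). The cohort difference in the Ctrl change over time gave 0 with the GC trend removed and 1 to 2 without 1 library (2 without Ctrl replicate 1 of 3 months and 5 mpi). Of all genes, 367 were called with the GC trend removed and 806 without that library, beside 590 in the main fit. The comparison of cohorts gave 11 members with the choroid plexus covariate and 13 to 18 without 1 library in Ctrl, and 12 to 22 in AD libraries. Of all genes, 16.2% were called with that covariate in Ctrl libraries and 16.6% in the AD fit with 12 members. The shares at the other ends of these ranges are not given here. Psmc6 in Ctrl libraries reversed to -0.00228 with the GC trend removed. The members' median in Ctrl libraries ran from -0.0102 to 0.0292 over settings. The causes were not tested.

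Whether replicate numbers pair libraries was not tested. Of 31 same-numbered pairs 12 had a correlation over 0.1 (-0.39 to 0.635) and 9 correlated best with their own number. With the replicate block, 18 members were called between cohorts in Ctrl libraries (17 shared) and 19 in AD libraries (19 shared), 1 over time in the 3-month Ctrl libraries, 1 in the cohort difference of that change and 0 in each AD comparison. Of all genes, 4290 and 4205 were called between cohorts in Ctrl and AD libraries with the block, 1943 over time and 598 in the cohort difference. The main fits called 4423, 4303, 1836 and 590.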
